A study of Mus musculus with 25 samples.

Results

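The 6 CXC chemokine ligands Cxcl1, Cxcl2, Cxcl3, Cxcl9, Cxcl10 and Cxcl16 were followed in single myeloid cells of the injured mouse spinal cord. The 6 genes were taken by name from the 22439 gene rows of each library's table of raw UMI counts (unique molecular identifiers, which count captured transcripts). The series holds 25 droplet 3′ single-cell RNA-seq libraries with 30958 cells, taken from a lesion segment of the cord, cleared of myelin on a density gradient and sorted by fluorescence. Each library pooled 1 to 3 mice, so the library is the replicate. Ages are not given in the sources used here. Libraries came from laminectomy-only animals (Ctrl, 2 libraries) or from animals at day 1 (D1, 5 libraries), day 2 (D2, 4), day 3 (D3, 7), day 10 (D10, 5) or day 21 (D21, 2) after injury.

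Every animal carried Cx3cr1CreERT2, an inducible Cre recombinase at the locus of the chemokine receptor Cx3cr1, controls included. The 12 libraries called mixed here came from the strain Cx3cr1CreERT2 and were sorted as YFP+. The strain Cx3cr1CreERT2:R26tdTomato, which adds a Cre-dependent red reporter, gave 5 resident libraries (RFP+/YFP+) and 7 infiltrating libraries (RFP-/YFP+). The title and the colour label of 1 further D3 library of that strain disagree. It is named D3_conflict 1 and entered no test but an alternative fit of macrophages over time. Its cells are counted in the shares of cells and UMIs pooled over a type and in the pooled cluster levels. They are left out of values given by library and of library medians. The mixed sort and its strain therefore cannot be told apart, and the sort selects for Cx3cr1 locus activity, which limits how far the cells stand for all myeloid cells of the lesion. Both sexes were sampled. The library D2_infiltrating 1, labelled female, carries the male code in the deposited cell table, and its label was used where sex entered a test. Among libraries whose microglia were tested over time, those of D1 were male and that of D21 was female. The mixed control was female and the resident control male, so sex and sort cannot be told apart in controls. The libraries were sequenced in 7 pools, none of which holds every time point.

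Depth varied: a library had between 155 and 3800 cells, a total of 486649 to 33204422 UMIs and a median per cell of 1577 to 11233 UMIs. Barcodes found in more than 1 library numbered 127, covering 254 cells, and these cells were kept. The authors deposited a numbered cell type and a numbered cluster for each cell, without names, so the types were named from marker genes. The 13289 cells called microglia stood out for 9 of 9 microglial markers and the 12841 called macrophages for 7 of 9 macrophage and 4 of 8 monocyte markers. The 2712 dendritic-like cells stood out for 6 of 8 dendritic markers and the 2116 neutrophil-like cells for 8 of 8 neutrophil markers. Levels are given as CPM, the UMIs of a gene relative to all UMIs of the cells of 1 type in 1 library and scaled to a common total, over sums of at least 20 cells.

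CXC chemokines are small secreted proteins that guide leukocytes along gradients. Cxcl1, Cxcl2 and Cxcl3 carry the ELR motif, bind the receptor Cxcr2 and are best known for drawing neutrophils into injured tissue, while Cxcl9 and Cxcl10 are induced by interferons and bind Cxcr3 on T and NK cells. Cxcl16 differs from the rest in being made as a membrane-anchored protein whose chemokine domain is released by the proteases Adam10 and Adam17, and its receptor is Cxcr6. In the injured cord, glia and arriving myeloid cells are known sources of these ligands.

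In the GRCm38 annotation, Cxcl3, Cxcl1 and Cxcl2 lie on the plus strand of chromosome 5, at 90786103 to 90789600, 90891241 to 90893115 and 90903871 to 90905938. Cxcl9 (92321347 to 92328079) and Cxcl10 (92346638 to 92348889) lie on its minus strand, and Cxcl16 lies on the minus strand of chromosome 11 at 70453983 to 70459984. The stretches before the starts of 5 genes are shown because Cxcl1, Cxcl2 and Cxcl3 share letters there. Cxcl2 and Cxcl3 fell together in the macrophages below, and Cxcl1 passed the filter in no comparison. They come from RefSeq with the GRCm38.p6 assembly, in transcript direction, each 250 bases ending just before the RefSeq start, which for Cxcl1, Cxcl2 and Cxcl3 is not the start given above: chr5:90890995-90891244 (plus) for Cxcl1, chr5:90903649-90903898 (plus) for Cxcl2, chr5:90785851-90786100 (plus) for Cxcl3, chr5:92328080-92328329 (minus) for Cxcl9 and chr5:92348890-92349139 (minus) for Cxcl10. Capitals mark matches to an NF-kB type motif, GGGNNNNNCC, and, in Cxcl10 alone, the first capital run marks an ISRE type motif, GAAANNGAAA, the letters bound by interferon-activated factors.
Cxcl1: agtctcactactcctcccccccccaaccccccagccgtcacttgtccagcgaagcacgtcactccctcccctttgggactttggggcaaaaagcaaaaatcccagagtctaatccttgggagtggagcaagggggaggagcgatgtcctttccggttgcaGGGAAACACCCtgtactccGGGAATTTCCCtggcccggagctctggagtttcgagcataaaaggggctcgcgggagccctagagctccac
Cxcl2: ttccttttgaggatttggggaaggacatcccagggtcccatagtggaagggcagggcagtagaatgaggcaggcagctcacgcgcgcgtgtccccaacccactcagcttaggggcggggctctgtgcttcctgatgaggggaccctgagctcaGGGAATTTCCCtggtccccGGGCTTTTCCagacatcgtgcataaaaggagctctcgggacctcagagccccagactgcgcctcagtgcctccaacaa
Cxcl3: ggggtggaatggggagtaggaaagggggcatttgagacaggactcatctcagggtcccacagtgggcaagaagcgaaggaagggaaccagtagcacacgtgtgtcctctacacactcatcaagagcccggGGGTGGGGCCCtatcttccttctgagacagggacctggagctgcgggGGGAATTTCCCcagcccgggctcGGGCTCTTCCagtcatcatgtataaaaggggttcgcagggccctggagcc
Cxcl9: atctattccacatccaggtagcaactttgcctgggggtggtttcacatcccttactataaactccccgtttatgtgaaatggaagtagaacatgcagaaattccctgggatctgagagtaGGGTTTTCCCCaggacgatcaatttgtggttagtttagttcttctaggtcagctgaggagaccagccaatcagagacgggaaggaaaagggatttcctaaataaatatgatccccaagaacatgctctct
Cxcl10: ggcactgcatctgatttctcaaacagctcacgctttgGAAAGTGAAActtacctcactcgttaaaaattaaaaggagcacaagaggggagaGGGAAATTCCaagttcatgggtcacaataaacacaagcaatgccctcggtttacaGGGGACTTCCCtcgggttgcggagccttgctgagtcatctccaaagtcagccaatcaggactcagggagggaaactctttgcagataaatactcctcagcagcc

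Motifs were searched on both strands from 250 bases before to 50 after each start. The NF-kB type letters formed 2 separate stretches in Cxcl1, 2 in Cxcl2, 3 in Cxcl3, 1 in Cxcl9 and 2 in Cxcl10, against 50.8% of 32851 windows of that length that hold at least 1. The ISRE type letters occurred at position -213 of Cxcl10 and in 3.44% of all windows. An AP-1 type motif, TGANTCA, lay at -74 in Cxcl10 and at 32 in Cxcl9, and in 7.81% of all windows. The longest run common to the upstream stretches of Cxcl1, Cxcl2 and Cxcl3 was GGGAATTTCCC, 11 bases starting at -71, -97 and -73. It was found in 14 of the 32851 windows (0.0426%), and it was looked for after the values of these genes had been seen. A match is a description of letters, and binding was not measured.

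The levels of the members were spread over the cell types in different ways. Cxcl2 had its highest median in neutrophil-like cells, where the 4 library sums were 713, 1071, 1413 and 2614 CPM. Macrophages ranged from 0 to 4225 CPM with a median of 42.8 over 19 sums, and microglia from 0 to 202 with a median of 0 over 19. The neutrophil-like sums came from D1 and D2 alone, and the macrophages of those 4 libraries had a median of 545 CPM. Dendritic-like cells ranged from 0 to 12.9 CPM over 9 sums. The neutrophil-like sums all exceeded those of microglia and dendritic-like cells, and overlapped the range of macrophages.

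Cxcl3 reached its highest sum in macrophages, at 8653 CPM, with a low of 0 and a median of 7.17 over D1 to D21. In neutrophil-like cells, with sums at D1 and D2 alone, Cxcl3 ran from 10.4 to 721 CPM with a median of 301. The macrophages of those same libraries had a median of 814 CPM. In microglia Cxcl3 ran from 0 to 57.6 with a median of 0, and in dendritic-like cells from 0 to 25.3 with a median of 0. All 4 types overlapped for Cxcl3. Cxcl10 was at 0 to 920 CPM in macrophages (median 113), 0 to 336 in microglia (median 22.1), 0 to 73.1 in neutrophil-like cells (median 21.5) and 0 to 72.4 in dendritic-like cells (median 0). These ranges overlapped as well.

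Cxcl16 was present in every sum of every type. Dendritic-like cells had 190 to 485 CPM (median 241), microglia 75.9 to 297 (median 167) and macrophages 74.3 to 266 (median 150), while neutrophil-like cells had 2.92 to 10.4 (median 7.38). The neutrophil-like range lay below all others, and the other three overlapped. Cxcl9 was scarce: its highest sums were 26.1 CPM in microglia, 11.4 in dendritic-like cells and 9.17 in macrophages, and it was at 0 in all 4 neutrophil-like sums. Cxcl1 was scarcer still, with 83 UMIs over all macrophage sums, 3 over microglia, 1 over neutrophil-like and 0 over dendritic-like cells. It passed the filter on low counts in no comparison and was not tested, except in alternative fits without that filter.

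**Figure D1:**
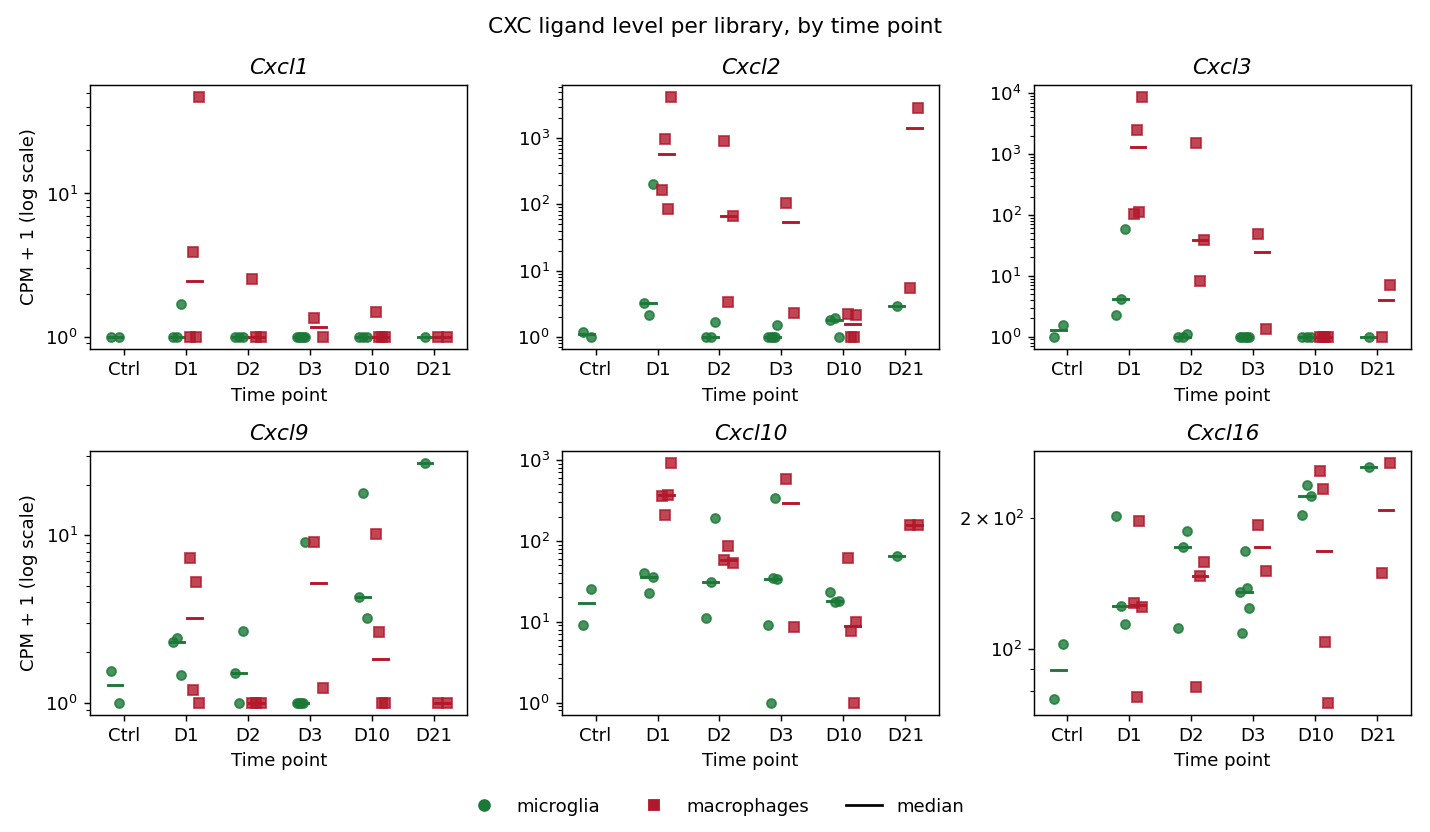
Level of each member (CPM, log axis with an offset for 0) against time point, 1 point per library, for the microglia and macrophage sums tested over time, with colours for these cell types. Cxcl2 and Cxcl3 points of macrophages spread from 0.363 to 8653 CPM at D1 to D3 and lie between 0 and 1.24 at D10, whereas Cxcl16 points of macrophages and microglia lie between 74.3 and 266 CPM.

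Tests compared sums within 1 cell type over time, with sex as a covariate, or 2 types within the same libraries. They used edgeR's quasi-likelihood test with TMM scaling on all genes that passed the filter, Benjamini-Hochberg adjustment over all of those genes and a threshold of 0.05. Because of the scaling and the sex term, a fitted log2 change differs from the ratio of raw levels. The quasi-likelihood test gives no standard error. SE here is the absolute log2 change divided by the square root of the test's F statistic. It is not a sampling error where a group's counts are at or near 0. All members but Cxcl1, 5 in number, were tested in microglia over time, between macrophages and microglia and between dendritic-like cells and macrophages. Cxcl9 dropped out as well in macrophages over time and between neutrophil-like cells and macrophages, which left 4. Macrophages of resident sorts entered the comparison between types and not that over time. The same holds for microglia of infiltrating sorts, 36 cells in D10_infiltrating 2 and 41 in D21_infiltrating 1. Nothing in the labels says that the libraries of a group came from separate experiments, so p-values measure the spread between these libraries.

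Cxcl2 and Cxcl3 of macrophages were higher at D1 than at D10, where they were at or near 0. At D21, described below, 1 of 2 libraries had high Cxcl2, all of it in 1 cell. Cxcl2 was 166, 983, 84.7 and 4225 CPM in the macrophages of D1_infiltrating 1, D1_infiltrating 2, D1_mixed 1 and D1_mixed 3. It was 925, 2.39 and 66.1 CPM in D2_infiltrating 1, D2_mixed 1 and D2_mixed 2, and 104 and 1.31 in D3_infiltrating 1 and D3_mixed 3. At D10 it lay between 0 and 1.24 CPM in 4 libraries. The D1 and D10 libraries did not overlap, whereas D2 and D3 held both libraries as high as D1 and libraries close to D10.

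Against D1, Cxcl2 of macrophages fell by 12.27 on the log2 scale at D10 (SE 2.82, adjusted p = 0.0128, edgeR). In raw counts there were 6 UMIs at D10 and 20018 at D1, a level 646-fold lower. This ratio was 277 without D1_infiltrating 2, which gave 15750 of the D1 UMIs, 1078 without D1_infiltrating 1 and 1335 without D10_infiltrating 1. Cxcl3, its close neighbour, gave 103, 2506, 110 and 8653 CPM at D1, 1524, 7.17 and 37.4 at D2, 47.5 and 0.363 at D3, and 0 in all 4 libraries at D10, in the same library order. The total of 45292 UMIs at D1 against 0 at D10 put the D10 level at least 2923-fold lower, taking a floor of 3 counts over the D10 group (adjusted p = 0.0184, edgeR). D1_infiltrating 2 gave 40146 of these UMIs, and the bound was 669-fold without it, 1007-fold without D10_infiltrating 1 and 5384-fold without D1_infiltrating 1. Macrophages were few in 2 of the D1 libraries, 28 in D1_mixed 1 and 54 in D1_mixed 3.

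Cxcl10, the interferon-induced ligand of Cxcr3, also fell in macrophages between D1 and D10. Its levels were 355, 208, 373 and 920 CPM at D1, 56.4, 86.0 and 52.1 at D2, and 584 and 7.57 at D3. At D10 they were 60.0, 6.61, 0 and 8.87 CPM in D10_infiltrating 1, D10_infiltrating 2, D10_mixed 1 and D10_mixed 2. No D10 library reached the lowest D1 library in these sums, whose means were 464 ± 313 CPM at D1 and 18.9 ± 27.7 at D10 (SD, n = 4 each). Pooled over cells the D10 level was 6.99-fold lower, and 51.0-fold lower without D10_infiltrating 1. The macrophages of D10_resident 1, which were not part of that test, had 131 CPM, all from 1 cell. The fitted fall was 4.80 on the log2 scale (SE 1.07, adjusted p = 0.0110, edgeR). Without the cells of deposited cluster 2 the change was -4.24 and missed the threshold (adjusted p = 0.0624, edgeR). Cxcl16 was 126, 76.7, 195 and 124 CPM at D1 and 255, 231, 103 and 74.3 at D10, which overlapped (log2 0.43, adjusted p = 0.533, edgeR, and -0.69 among mixed libraries alone).

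At D10 against D1, 3 of the 4 tested members were thus called, all lower, where 14.4% of the 8577 genes tested were called. All 3 calls were kept when each of the 15 libraries was left out in turn. Sums of 13 dissociation and stress genes, which cell isolation can raise, moved in the same direction: 2449 to 3282 CPM in D1 macrophages against 706 to 791 at D10. Their part in the result was not tested. Summed monocyte markers ran from 3288 to 6663 CPM at D1 and from 98.3 to 5879 at D10, and the part of a changed mix of monocytes and macrophages was not tested either. The macrophages of both times lay in different deposited clusters. Clusters 11 and 12 held 54.0% and 21.0% of the 3236 cells at D1 but 0.763% and 1.15% of the 786 at D10, of which cluster 9 held 61.1% and cluster 3 held 22.6%. In such sums, fewer cells of a state and less RNA per cell cannot be told apart.

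Between D1 and D2 or D3 no member of macrophages passed the test, and neither did any other gene. The share of genes called was 0 of 8577, or 0%, in both comparisons by edgeR, with 123 and 612 genes at an unadjusted p under 0.05, and 0 and 5 calls with DESeq2. Cxcl2 differed by -4.17 and -4.97 on the log2 scale at D2 and D3, Cxcl3 by -3.60 and -7.21 and Cxcl10 by -3.39 and -0.80, with adjusted p of at least 0.645 (edgeR). With the pool as a term the D2 differences of Cxcl2 and Cxcl3 turned positive (3.45 for Cxcl2), and without D2_mixed 2 that of Cxcl3 was 2.20, none of them called. At D3 that of Cxcl10 was 0.16 without D3_mixed 3 (adjusted p = 0.996, edgeR). Among mixed libraries alone, all 3 were called lower at D3 (adjusted p = 0.00916, 0.0103 and 0.00131, edgeR), and Cxcl10 also at D2 (adjusted p = 0.0415, edgeR). The D3 arm of that fit is 1 library, D3_mixed 3, assumed to vary like the other groups. In these libraries the infiltrating sort had the higher Cxcl2 and Cxcl3 at D2 and D3 and the mixed sort the lower.

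At D21 the macrophages of 2 libraries diverged. Cxcl2 was 4.41 CPM in D21_infiltrating 1 and 2879 in D21_mixed 1, and all 964 UMIs of the latter lay in 1 of its 78 cells, a cell of 18136 UMIs in deposited cluster 14. No member was called at D21 against D1, where 3.56% of genes were (Cxcl2 log2 -1.97, adjusted p = 0.751, edgeR). Without cluster 14, a choice made after seeing the data, the Cxcl2 difference was -8.95 (adjusted p = 0.0917, edgeR). It was positive with the pool as a term (2.45), among mixed libraries alone (5.82), without D2_infiltrating 1 (1.52) and without D21_infiltrating 1 (1.29), with adjusted p of at least 0.549 (edgeR), so no direction is read from it. Cxcl3 was 0 and 5.97 CPM in these libraries, and its fitted difference of -10.73 missed the threshold (adjusted p = 0.18, edgeR) but passed it with DESeq2 (adjusted p = 0.00718). Cxcl10 stood at 154 and 155 CPM, below every D1 library, from 4 and 2 cells with a UMI (log2 -1.67, adjusted p = 0.432, edgeR).

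In microglia, Cxcl16 was higher than in controls at every time point after injury. Its levels were 75.9 and 101 CPM in Ctrl_mixed 1 and Ctrl_resident 1. At D1 they were 200, 124 and 113 CPM, at D2 111, 170 and 186, and at D3 they ran from 108 to 167 with a median of 134. At D10 they were 201, 236 and 224 CPM, and in the D21 library tested 260. Each of these libraries after injury lay above both controls, and the D10 and D21 sums lay above every earlier one. Outside the test, D10_infiltrating 2 had 297 CPM and D21_infiltrating 1 had 195, the latter below D1_mixed 1. The deposited clusters changed as well: all 1887 control microglia lay in cluster 1, which held no cell after injury. Those tested at D1 lay mainly in clusters 5 (69.9%) and 2 (27.4%), those at D10 in clusters 3 (48.7%) and 4 (32.8%) and those at D21 in cluster 3 (71.8%). Cluster and injury therefore cannot be told apart in any comparison of microglia with controls.

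The rise of Cxcl16 over controls was 1.34 on the log2 scale at D1 (SE 0.29, adjusted p = 0.0013, edgeR), 1.12 at D2 (adjusted p = 0.0072, edgeR) and 1.13 at D3 (adjusted p = 0.00364, edgeR). It was 1.88 at D10 (SE 0.28, adjusted p = 0.000368, edgeR) and 2.55 at D21 (SE 0.35, adjusted p = 0.000186, edgeR), the last from 1 library assumed to vary like the others. With only 2 controls, the calls leaned on single libraries: without Ctrl_mixed 1, which leaves 1 control, the D2 and D3 calls were lost at changes of 1.03 and 1.04. At equal depth the D1 and D2 calls were lost as well, at changes of 0.86 and 0.95 (adjusted p = 0.130 and 0.101, edgeR). With the sequencing pool as a term the D3 call was lost at a larger change of 1.70 (adjusted p = 0.116, edgeR). Among mixed libraries alone, with 1 control, the calls of D1, D2, D3 and D10 were lost at changes of 1.31, 0.97, 1.05 and 1.72. With each cell thinned to 1000 UMIs, 7.28% to 10.9% of control microglia had a Cxcl16 UMI, 9.55% to 16.2% at D1, 13.2% to 21.7% at D2, 8.63% to 15.9% at D3, 16.7% to 25.0% at D10 and 21.8% to 24.4% at D21. The D1 and D3 ranges thus overlapped the controls. The unthinned shares were 23.0% to 27.5% in controls, 17.7% to 37.0% at D3, where the median depth was 1894 UMIs against 3802 in controls, and 43.9% to 53.7% at D21, and neutrophil-like cells thinned alike gave 0% to 1.09%.

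Markers of other myeloid cells rose in these microglia over the same time. The summed level of 9 macrophage markers was 481 to 500 CPM in controls, 917 to 1098 at D1, 2921 to 20318 at D10 and 5924 to 13496 at D21. Summed dendritic markers were 13.5 to 15.0 CPM in controls, 31.0 to 107 at D10 and 117 to 1153 at D21. Their part in the rise of Cxcl16 was not tested.

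Cxcl9 appeared late in microglia. Controls had 0.536 and 0 CPM, D1 libraries 1.31, 1.42 and 0.464, and D2 libraries 0.501, 0 and 1.67. At D3 it was 0 in 4 of 5 libraries and 8.18 CPM in D3_resident 2, at D10 it was 3.27, 16.8 and 2.22, and at D21 26.1. These D10 and D21 sums lay above all of Ctrl, D1 and D2, while D10_infiltrating 2, which was not part of the test, was at 0 and D21_infiltrating 1 at 15.6. Very few cells carried it: 120 UMIs in 23 of 1041 microglia (2.21%) of D21_mixed 1 and 72 UMIs in 12 of 918 microglia of D10_mixed 2.

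Against controls Cxcl9 of microglia rose by 7.31 on the log2 scale at D21 (SE 1.33, adjusted p = 0.00184, edgeR), again from 1 library, D21_mixed 1, assumed to vary like the other groups. Its raw counts, 120 at D21 and 3 in controls, gave a ratio of 64.9 with a counting interval of 21.7 to 319. All 3 control UMIs came from Ctrl_mixed 1, without which the fitted change was 11.69 (adjusted p = 0.0307, edgeR). At equal depth Cxcl9 did not pass the filter. At D10 the difference of 3.90 missed the threshold (adjusted p = 0.0635, edgeR), and passed it without D10_mixed 1, D3_mixed 3 or D3_resident 2 (adjusted p = 0.0497, 0.0377 and 0.0293, edgeR). Against D1 the D10 level was higher by 2.99 (SE 0.89, adjusted p = 0.0160, edgeR), a call lost without D1_mixed 3 (adjusted p = 0.0502, edgeR) or D10_mixed 2 (adjusted p = 0.327, edgeR). Markers of T and NK cells, which carry the receptor of Cxcl9, summed to at most 2.66 CPM in microglia. Macrophage and dendritic markers in microglia rose over the same time, with the values given beside Cxcl16, and their part in the rise of Cxcl9 was not tested.

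The ELR ligands of microglia came almost wholly from 1 library. Cxcl2 was 202 CPM in D1_mixed 3, 2.19 and 1.14 in the other D1 libraries, 0.179 and 0 in controls, and at most 1.96 in every later library. Cxcl3 was 57.6 CPM in D1_mixed 3, 1.31 and 3.13 in the other D1 libraries, 0 and 0.539 in controls, and at most 0.128 later. The D1 libraries of both genes lay above the controls, and 1 of the 3 was far above the other pair. In D1_mixed 3, 281 of the 872 Cxcl2 UMIs lay in 1 microglial cell, and 115 of 1321 cells had at least 1. Most of these UMIs, 782, lay in the 610 microglia of cluster 2, at 592 CPM of Cxcl2 and 90.8 of Cxcl3. The 673 microglia of cluster 5 had 31.2 and 43.6 CPM, with more Cxcl3 than Cxcl2, as in the macrophages of this library, which had 4225 and 8653. No type that should lack these genes had 20 cells in this library, so the share that free RNA gives its cells is not known.

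Cxcl2 of microglia was higher at D1 than in controls by 8.08 on the log2 scale (SE 2.84, adjusted p = 0.0270, edgeR), with 886 UMIs against 1, a ratio of 533 with a counting interval of 95.4 to 21070. Cxcl3 missed the threshold in the same comparison (log2 6.08, SE 2.69, adjusted p = 0.0871, edgeR), with 265 UMIs against 1, and passed it without D1_mixed 1 (adjusted p = 0.0255, edgeR). It also passed without an expression filter (log2 5.98, adjusted p = 0.00969, edgeR). The ratio for Cxcl2 was 12.9 without D1_mixed 3, from 14 UMIs against 1, and 835 without D1_mixed 1. The Cxcl2 call was lost without Ctrl_mixed 1 or Ctrl_resident 1, at changes of 10.79 and 4.79 (adjusted p = 0.0523 and 0.986, edgeR), and without D3_resident 2 (adjusted p = 0.0550, edgeR). It was also lost with the sort as a term at 7.95 (adjusted p = 0.273, edgeR) and without cluster 2 at 5.27 (adjusted p = 0.0606, edgeR), and without D1_mixed 3 or D21_mixed 1 the gene did not pass the filter. Against D1, Cxcl2 fell at D3 and at D10 (log2 -8.29 and -6.50, adjusted p = 0.00609 and 0.00685, edgeR). Cxcl3 fell as well (log2 -9.09 and -8.94, adjusted p = 0.0307 and 0.0154, edgeR), and its counts of 0 put it at least 37.4-fold and 81.5-fold lower. Over left-out libraries these bounds ran from 3.68 and 8.02, both without D1_mixed 3, to 58.0 and 126, both without D1_mixed 1.

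The calls of these falls also depended on single libraries. Summed dissociation and stress genes of microglia were 601 to 866 CPM at D1, 274 to 570 at D3 and 547 to 945 at D10, and their part was not tested. DESeq2 did not call the fall of Cxcl3 at D3 or D10 (adjusted p = 0.308 and 0.185). At D3 the Cxcl3 call was lost without D2_mixed 2, D3_mixed 3 or D3_resident 2, at changes of -9.14, -9.06 and -8.97 (adjusted p = 0.0536, 0.0657 and 0.0749, edgeR). Neither gene could be tested without D1_mixed 3 or D21_mixed 1. At D10 the Cxcl2 call was lost without D10_mixed 1 or D10_mixed 2, at changes of -6.53 and -6.71 (adjusted p = 0.0506 and 0.0521, edgeR). That of Cxcl3 was lost as well, at -8.67 and -8.74 (adjusted p = 0.0706 and 0.0717, edgeR). Marker sums in the microglia of D1_mixed 3 were 106 CPM for neutrophils and 43.6 for monocytes, above the 38.1 and 61.3 and the 13.3 and 18.8 of the other D1 libraries. The macrophage marker sum, 929 CPM, lay between their 917 and 1098. The part of these other cell types in the Cxcl2 and Cxcl3 of this library was not tested.

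Cxcl10 of microglia varied more between libraries than between time points. Controls had 8.04 and 24.3 CPM, D1 libraries 39.2, 21.9 and 35.0, and D2 libraries 10.0, 29.6 and 188. D3 libraries gave 8.24, 0, 34.0, 336 and 32.7, D10 libraries 22.1, 16.6 and 17.3, and D21 63.1. The 2 highest, D2_resident 1 and D3_resident 1, were resident sorts, but D3_resident 2 was at 32.7, and every time point overlapped the controls, D21 through the 0 CPM of D21_infiltrating 1, which was not part of the test. None of the differences from controls passed the test: log2 2.09 at D1, 3.14 at D2 and 2.64 at D3 (adjusted p = 0.2, 0.0863 and 0.12, edgeR). At D2 the difference rested on D2_resident 1, without which it was -0.66 (adjusted p = 0.789, edgeR). The call was gained at D2 without D2_mixed 1 or D3_resident 1 (adjusted p = 0.0456 and 0.0482, edgeR), at D1 and D3 with the sort as a term (adjusted p = 0.0235 and 0.0466, edgeR), and with the sequencing pool as a term at D2 and D3 (adjusted p = 0.00151 and 0.025, edgeR). At D21 it was gained without D3_resident 1 (adjusted p = 0.0344, edgeR).

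The counts of members called in microglia stood beside those of all genes tested as follows. Against controls, 2 of 5 members were called at D1 (Cxcl2 and Cxcl16) and 46.6% of all 10801 genes, and 1 of 5 at D2 and at D3 (Cxcl16), where 29.7% and 37.6% of genes were called. At D10 it was 1 of 5 against 10.3%, and at D21 2 of 5 (Cxcl9 and Cxcl16) against 6.98%. All of these calls were higher after injury. Against D1, 2 of 5 members were called at D3 and 18.8% of genes, both members lower, and 3 of 5 at D10 and 33.7% of genes, with Cxcl2 and Cxcl3 lower and Cxcl9 higher.

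Within the same libraries, early macrophages held more Cxcl2 and Cxcl3 than the microglia beside them, though part of the libraries were near 0 in both. Over 8 libraries of D1 to D3, Cxcl2 ranged from 1.31 to 4225 CPM in macrophages with a median of 54.5, and from 0 to 202 in microglia with a median of 0.241. It was higher in macrophages in 8 of 8 libraries, by 5.20 on the log2 scale (SE 0.76, adjusted p = 2.1e-05, edgeR). Cxcl3 had medians of 30.9 and 0 CPM and was higher in macrophages in 7 of 8 libraries, with the remaining one at 0 in both, by 7.05 (SE 0.38, adjusted p = 2.4e-09, edgeR). DESeq2 gave an adjusted p of 0.0813 for Cxcl3. Macrophages had only 2.39, 1.31 and 5.63 CPM of Cxcl2 in D2_mixed 1, D3_mixed 3 and D3_resident 1, against 0 in microglia. In the other libraries they had 42.8 to 4225 CPM of Cxcl2. For Cxcl3 the pair of D3_mixed 3 was 0.363 against 0 CPM. The microglia of D2_mixed 2, at 0 for both genes, were 23 cells.

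The other members were not called between the types early on. Cxcl10 was higher in macrophages in 5 of 8 libraries (medians 105 and 34.5 CPM, log2 1.00, adjusted p = 0.289, edgeR). It was called without an expression filter (log2 0.95, adjusted p = 0.00121, edgeR) and turned to -0.21 without cluster 2 (adjusted p = 0.890, edgeR). In D2_resident 1 and D3_resident 1 microglia had the more Cxcl10, 188 against 114 CPM and 336 against 113. Cxcl16 had nearly the same median in both types, 154 and 152 CPM, and was higher in macrophages in 3 of 8 libraries (log2 0.04, edgeR, with either sign over the alternatives). Cxcl9 was higher in macrophages in 2 libraries and lower in 4 (log2 -1.13, adjusted p = 0.261, edgeR). Early on, 2 of 5 members were called and 37.5% of 9596 genes.

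**Figure D2:**
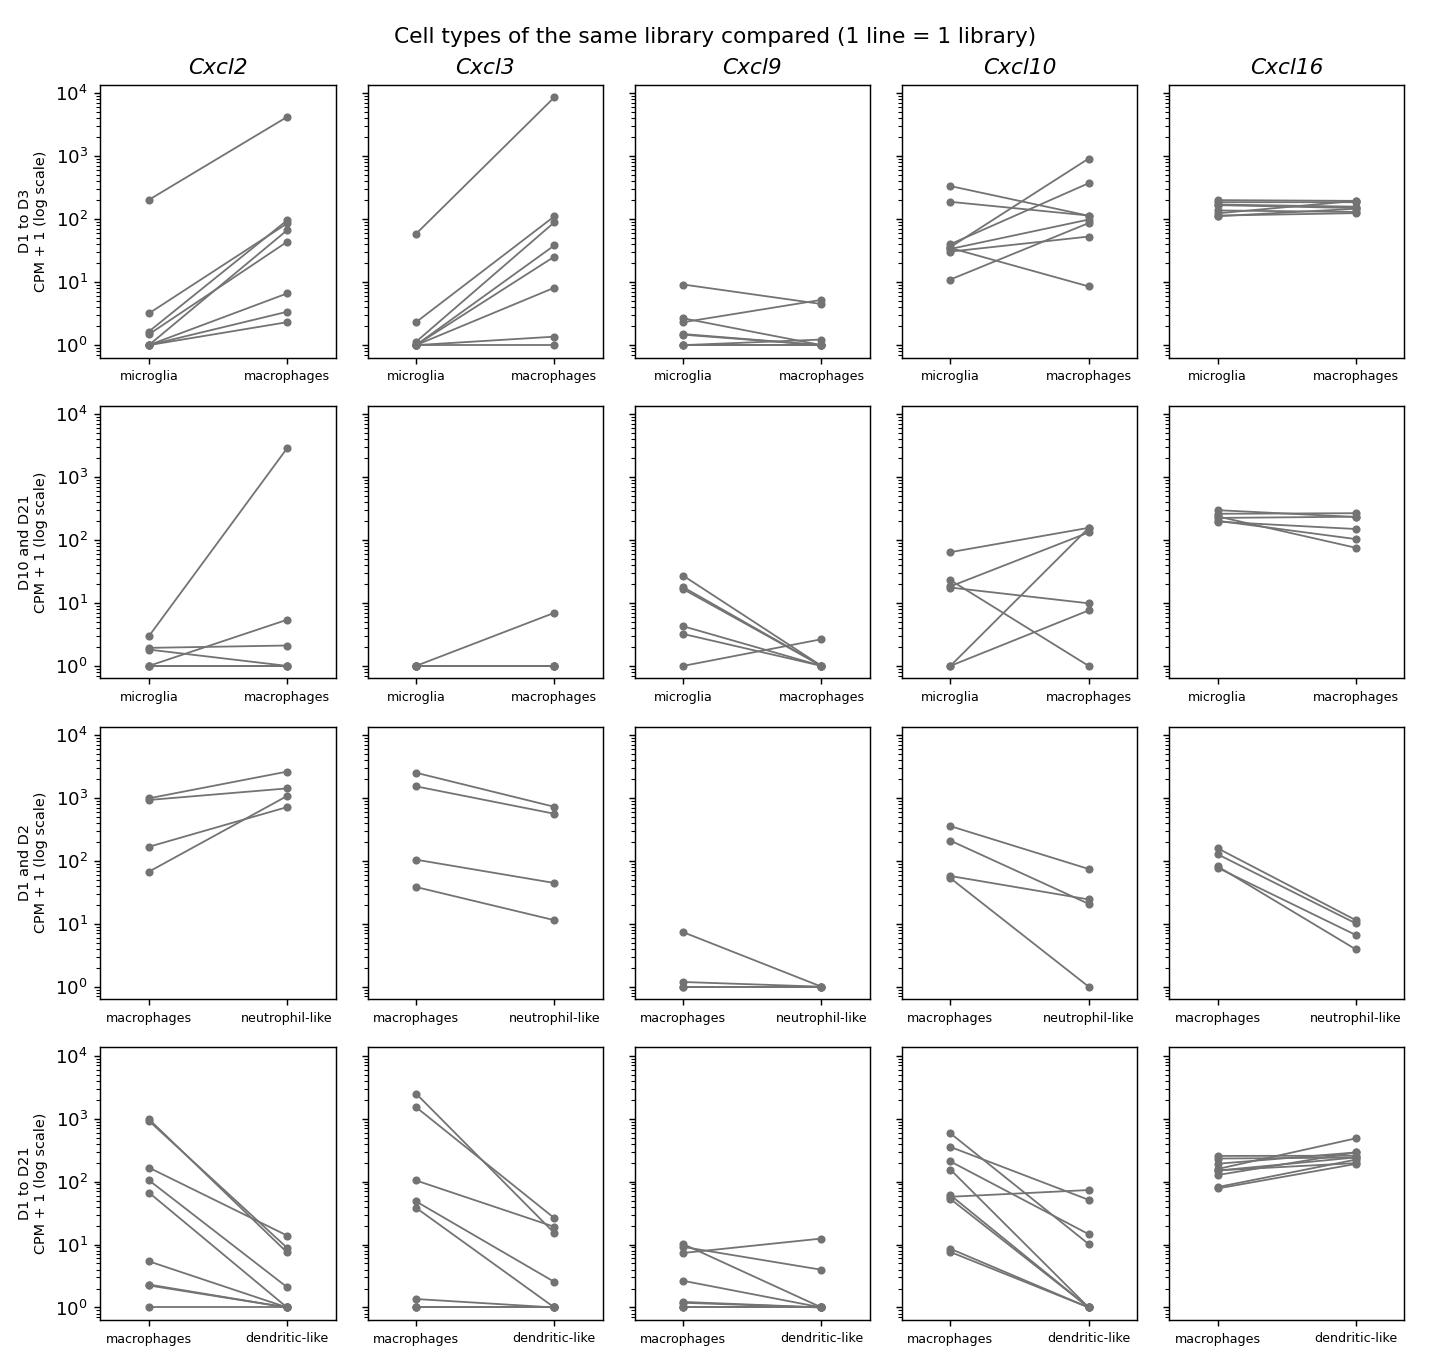
Level of 5 members (CPM, log axis with an offset for 0) in microglia and macrophages of the same library, joined by a line for each library, with D1 to D3 and D10 to D21 apart. Lines rise towards macrophages in 8 of 8 early libraries for Cxcl2 and in 7 of 8 for Cxcl3, those of Cxcl16 run in both directions, with 74.3 CPM in macrophages against 236 in microglia of D10_mixed 2, and those of Cxcl9 fall towards macrophages in 5 of 6 late libraries.

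In the 6 late libraries with both types (D10 and D21), Cxcl9 was higher in microglia. It was 0, 3.27, 16.8, 2.22, 15.6 and 26.1 CPM in microglia and 1.65, 0, 0, 0, 0 and 0 in macrophages, in the order D10_infiltrating 2, D10_mixed 1, D10_mixed 2, D10_resident 1, D21_infiltrating 1 and D21_mixed 1. It was lower in macrophages in 5 of 6 libraries (log2 -5.19, SE 0.97, adjusted p = 0.000879, edgeR). The 15.6 CPM of D21_infiltrating 1 rest on 2 UMIs in 41 microglia.

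Late Cxcl2 and Cxcl3 were called higher in macrophages (log2 7.58 and 5.08, adjusted p = 0.00541 and 0.0215, edgeR), and the difference rested on 1 library. Cxcl2 was 0, 0, 1.11, 0, 4.41 and 2879 CPM in the macrophages of these libraries. Without D21_mixed 1 the Cxcl2 difference was 0.02 (adjusted p = 0.998, edgeR), and the Cxcl3 call was lost too (adjusted p = 1, edgeR). DESeq2 called neither (adjusted p = 0.831 and 0.890). Late Cxcl10 and Cxcl16 differed by 1.06 and -0.55, the latter with an adjusted p of 0.109 (edgeR) that fell to 0.0465 without D10_resident 1. The Cxcl10 difference was called without an expression filter (log2 0.999, adjusted p = 0.0200, edgeR) and turned to -1.48 without cluster 2 (adjusted p = 0.429, edgeR). In all 3 of 5 members were called late, and 13.6% of genes.

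The change of the difference between early and late libraries was itself tested, and no member was called (10.7% of genes were). For Cxcl9 it was -4.06 (adjusted p = 0.0815, edgeR), and it was called without D10_infiltrating 2 (adjusted p = 0.0412, edgeR). For Cxcl2 it was 2.38 (adjusted p = 0.424, edgeR) and turned to -5.13 without D21_mixed 1 (adjusted p = 0.00915, edgeR) and to -4.49 with DESeq2 (adjusted p = 0.0885), while it was called at 3.80 at equal depth and at 2.28 without an expression filter (adjusted p = 0.0192 and 0.0468, edgeR).

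Neutrophil-like cells, which carry the ELR receptor Cxcr2, held more Cxcl2 and less Cxcl3, Cxcl10 and Cxcl16 than macrophages of the same libraries, and Cxcl1 and Cxcl9 did not pass the filter there. In D1_infiltrating 1, D1_infiltrating 2, D2_infiltrating 1 and D2_mixed 2, Cxcl2 was 713, 2614, 1413 and 1071 CPM in neutrophil-like cells and 166, 983, 925 and 66.1 in macrophages. It was higher in 4 of 4 libraries, by 1.87 on the log2 scale (SE 0.39, adjusted p = 0.000772, edgeR). Cxcl3 went the other way, with 43.4, 721, 559 and 10.4 CPM against 103, 2506, 1524 and 37.4, lower in 4 of 4 libraries (log2 -1.56, SE 0.32, adjusted p = 0.00072, edgeR).

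Cxcl10 was 73.1, 19.7, 23.3 and 0 CPM in the same neutrophil-like sums, lower than macrophages in 4 of 4 libraries (log2 -2.52, SE 0.40, adjusted p = 7.9e-05, edgeR). Cxcl16 was 9.14, 5.62, 2.92 and 10.4 CPM, lower in 4 of 4 (log2 -4.06, SE 0.37, adjusted p = 1.8e-07, edgeR). All 4 tested members were called, 1 higher and 3 lower, where 48.1% of 9679 genes were. Dissociation and stress genes summed to 3857 to 7255 CPM in neutrophil-like cells, above every macrophage sum of D1, and their part in the Cxcl2 difference was not tested.

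Dendritic-like cells had more Cxcl16 and less Cxcl2, Cxcl3 and Cxcl10 than macrophages of the same libraries. Over 9 libraries Cxcl16 was higher than in macrophages in 9 of 9, by 0.77 on the log2 scale (SE 0.16, adjusted p = 0.00154, edgeR). The levels were close at D10, 257 against 255 CPM in D10_infiltrating 1 and 240 against 231 in D10_infiltrating 2. In D1_infiltrating 1, D1_infiltrating 2, D2_infiltrating 1 and D2_mixed 2 they were 290, 190, 223 and 485 CPM against 126, 76.7, 80.8 and 158. In D3_infiltrating 1, D3_mixed 3 and D21_infiltrating 1 they were 290, 196 and 241 against 191, 150 and 149. Cxcl2 was lower in 8 of 9 (log2 -5.99, SE 0.44, adjusted p = 2.3e-07, edgeR), Cxcl3 in 6 of 9 (log2 -5.27, SE 0.62, adjusted p = 3.3e-05, edgeR) and Cxcl10 in 8 of 9 (log2 -3.58, SE 0.66, adjusted p = 0.000502, edgeR). DESeq2 did not call Cxcl3 (adjusted p = 0.101). Cxcl9 did not pass (log2 -0.75, adjusted p = 0.303, edgeR), except without D1_infiltrating 1 (adjusted p = 0.0471, edgeR). Of the 5 tested members 4 were called, where 40.5% of 10353 genes were.

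Most transcripts of 4 members sat in few cells, and those of Cxcl16 did not. Among the 12841 macrophages, the 128 cells with the most UMIs of a gene held 76.0% of all Cxcl10, 52.6% of Cxcl3, 41.4% of Cxcl2 and 12.7% of Cxcl16 UMIs. A single macrophage of D3_infiltrating 1 had 1006 Cxcl10 UMIs, one of D1_mixed 3 had 806 Cxcl3 UMIs and one of D21_mixed 1 had 964 Cxcl2 UMIs. The fewest macrophages that together held 50% of the UMIs numbered 54 for Cxcl10, 118 for Cxcl3, 180 for Cxcl2 and 1128 for Cxcl16. The same count was 20 for Cxcl10 in microglia and 58 for Cxcl2 in neutrophil-like cells. Cxcl9 was as uneven: 98 of the 143 UMIs of macrophages in D3_infiltrating 1 lay in 1 cell.

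**Figure D3:**
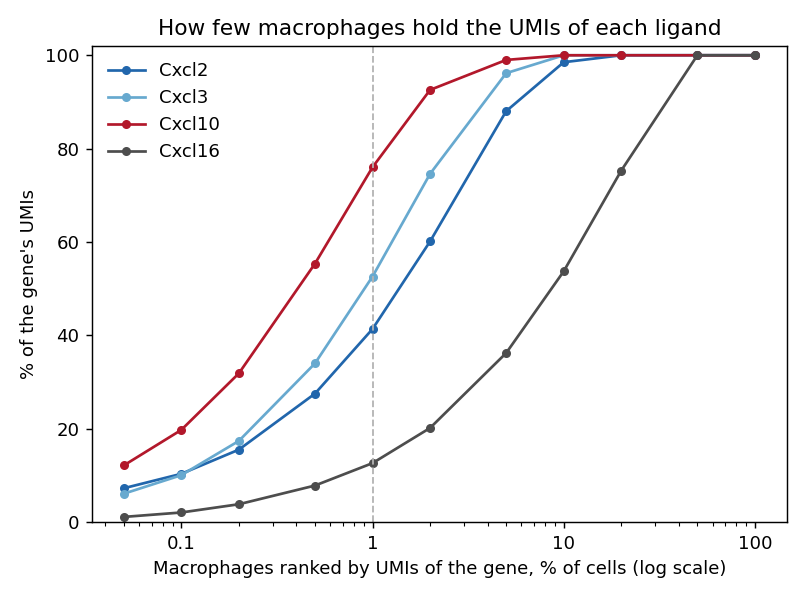
Share of a member's UMIs (percent) held by the macrophages with the most UMIs of it, against the share of macrophages taken (percent, log axis). Lines are drawn for Cxcl2, Cxcl3, Cxcl10 and Cxcl16. At 1% of macrophages the line of Cxcl10 is at 76.0% and that of Cxcl16 at 12.7%.

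The order of the members by the share of cells with at least 1 UMI differed between the types. In macrophages, at a median of 9144 UMIs per cell, 45.1% of cells had a Cxcl16 UMI, 13.7% a Cxcl2 UMI, 9.98% a Cxcl3 UMI, 7.11% a Cxcl10 UMI and 0.273% a Cxcl9 UMI. Neutrophil-like cells, at a median of 2154 UMIs, had 1.70% for Cxcl16 but 32.1% for Cxcl2, 14.1% for Cxcl3 and 2.98% for Cxcl10. D3_conflict 1 gave 897 of the 2116 neutrophil-like cells. By library without it, the unthinned Cxcl2 share of neutrophil-like cells ran from 25.5% to 54.0% at D1 and from 23.5% to 56.1% at D2. Dendritic-like cells, at 11361 UMIs, had 60.9% for Cxcl16, 4.31% for Cxcl10 and 1.88% for Cxcl2. Microglia, at 3062 UMIs, had 34.9% for Cxcl16, 2.85% for Cxcl10 and 1.14% for Cxcl2, and the depths differ. Thinned to 1000 UMIs, the Cxcl2 share of microglia was 0.127% to 4.85% over the D1 libraries and at most 0.192% in any other, and that of dendritic-like cells 0% to 1.14%. Thinned to 1000 UMIs, 6.98% to 38.9% of D1 macrophages in each library had a Cxcl2 UMI and 0% of those at D10.

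Within thinned cells, Cxcl2 and Cxcl3 shared part of their cells. Of 12784 macrophages, 932 had a Cxcl2 UMI, 821 a Cxcl3 UMI and 473 both, so 57.6% of the Cxcl3 cells had Cxcl2, against 7.29% of all cells, and 50.8% of the Cxcl2 cells had Cxcl3. Of the 437 cells with a Cxcl10 UMI, 26 (5.95%) had Cxcl2 and 14 (3.20%) had Cxcl3, against 7.29% and 6.42% of all cells. In 2088 neutrophil-like cells, 136 of 211 Cxcl3 cells (64.5%) had Cxcl2, against 25.1% of all cells, and 9 of 32 Cxcl10 cells (28.1%) did, while 136 of 525 Cxcl2 cells (25.9%) had Cxcl3. In microglia 13 of 45 Cxcl3 cells (28.9%) and 3 of 190 Cxcl10 cells (1.58%) had Cxcl2, against 0.566% of all cells, and 13 of 75 Cxcl2 cells (17.3%) had Cxcl3. These shares pool cells over libraries whose levels differ, so they describe the cells and carry no test.

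The deposited clusters located the ligands further. Cluster 11, macrophages, held 14.5% of all cells but 83.1% of Cxcl3, 68.4% of Cxcl10, 54.8% of Cxcl2 and 45.0% of Cxcl9 UMIs. Its pooled levels were 1094 CPM for Cxcl3, 480 for Cxcl10 and 477 for Cxcl2, but D1_infiltrating 2 gave 74.5% of its Cxcl3 and 60.9% of its Cxcl2 UMIs. Over 9 libraries its medians were 52.1 CPM for Cxcl3, 90.5 for Cxcl2 and 257 for Cxcl10. Cluster 12, also macrophages, had medians of 117 CPM for Cxcl3, 295 for Cxcl2 and 63.5 for Cxcl10 over 5 libraries, and pooled levels of 165, 370 and 241. Over libraries with at least 50 cells, the medians of clusters 11 and 12 were 116 and 117 CPM for Cxcl3 and 107 and 295 for Cxcl2. Cluster 16, the neutrophil-like cells, had 1172 CPM for Cxcl2 and 309 for Cxcl3. Cluster 14 had the highest pooled Cxcl2, 3636 CPM, but 76.6% of those UMIs came from D21_mixed 1. Cluster 2, which holds both macrophage and microglia cells, had 200 CPM of Cxcl2, 95.8% of it from D1_mixed 3.

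Cxcl16 and Cxcl9 were placed differently. Cxcl16 had similar library medians in cluster 9, macrophages (245 CPM), cluster 15, the dendritic-like cells (241), cluster 3 (223) and cluster 4 (212), with overlapping ranges. Its pooled levels there were 170, 277, 234 and 216 CPM, and D3_mixed 3 gave 61.8% of the UMIs of cluster 9. Cluster 15 held 25.3% of all Cxcl16 UMIs in 8.76% of cells, and the lowest pooled levels were in clusters 13 (10.8) and 16 (8.51). Cluster 1, which consists of the 1887 control cells, had 82.3 CPM. Cxcl9 had its highest pooled levels in cluster 3 (15.1 CPM, 71.8% from D21_mixed 1) and cluster 4 (7.25 CPM, 87.0% from D10_mixed 2). Cluster 6 had 133 CPM of Cxcl10, 89.5% of it from D2_resident 1. The clusters were made by the authors from these cells, and whether the members took part is not given in the sources used here, so cluster levels are a description.

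**Figure D4:**
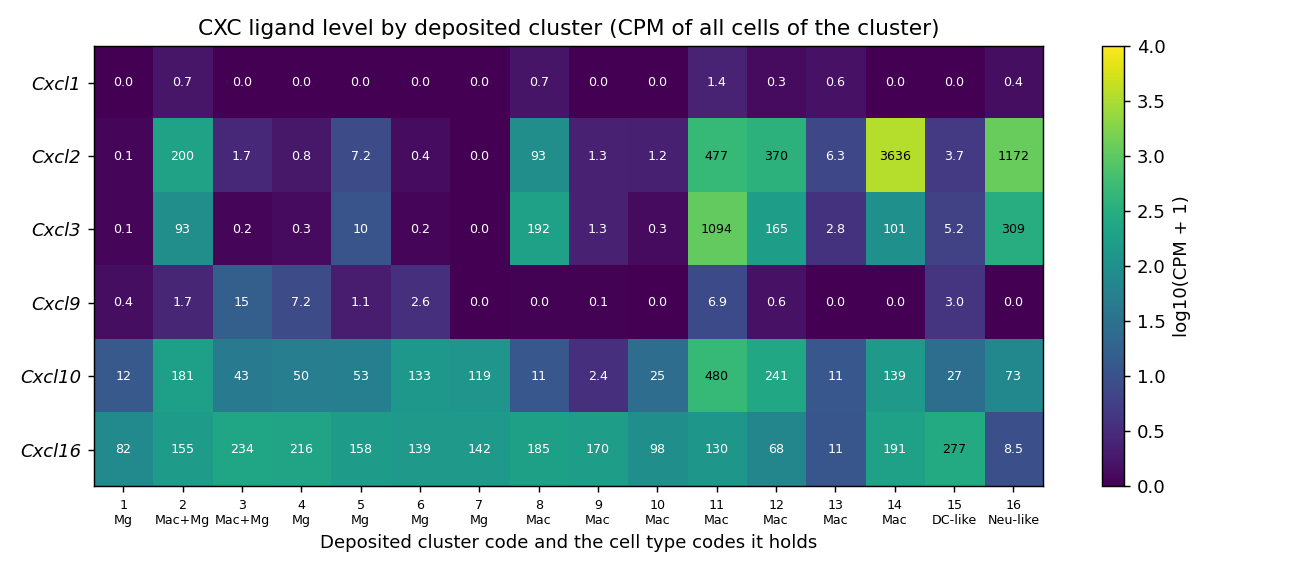
Level of each member in each deposited cluster, as the CPM pooled over all cells of the cluster. Colour gives the level on a log scale with an offset for 0, and the value is printed in each field. The spread between libraries is not drawn. Pooled Cxcl2 is 477 CPM in cluster 11, 370 in cluster 12 and 1172 in cluster 16, and Cxcl16 is low in clusters 13 and 16.

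Genes whose levels were most like those of a member were named over 51 sums of all types, by Pearson's r of log2(CPM + 5) among 5545 genes. These sums share libraries and differ in type, so the values are a description. Cxcl2 was most like Dusp1 (0.865), a phosphatase of MAP kinases, the cystine transporter Slc7a11 (0.858) and Cxcl3 (0.857). Cxcl3 was most like the metalloprotease Mmp19 (0.878), the lipid droplet gene Hilpda (0.858) and the granule proteoglycan gene Srgn (0.857). Cxcl10 was most like Rsad2 (0.736), an interferon-induced antiviral gene, then App (0.709) and Peak1 (0.684). Cxcl16 was most like genes of the translation machinery, Rps4x (0.895), Eef1a1 (0.868) and Rps24 (0.868).

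The rarer members had weaker partners, with Cxcl1 nearest to Cxcl3 (0.616), Saa3 (0.590) and Sod2 (0.576), and Cxcl9 nearest to Tent5c (0.401), Cst7 (0.399) and B2m (0.386). Over the 19 microglia sums alone, Cxcl10 was most like Phf11d (0.762), Ifit3 (0.752), an interferon-induced gene, and Sdc3 (0.744). Cxcl16 was there most like Cox6a2 (0.850), Atf3 (0.838), a stress-induced transcription factor, and the pattern receptor Clec7a (0.832). Cxcl9 was nearest to Chst2 (0.676), Apoc4 (0.626) and Cd74 (0.621), the chaperone of class II antigen presentation. The r of 0.982 between Cxcl2 and Cxcl3 in microglia rests on D1_mixed 3.

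Other CXC ligands were called in several of these comparisons. In microglia at D1 against controls, 3 of 9 listed ligands were tested: Cxcl14 and Pf4, the platelet chemokine, rose (log2 5.04 and 6.96), and Cxcl13, a B cell attractant, fell by 6.93 (46.6% of all genes called, median of the list 5.04 against -0.008 over all genes). At D10 and D21 Cxcl14 (6.53 and 7.31) and Pf4 (6.46 and 5.20) were still called higher (10.3% and 6.98% of all genes called). In macrophages at D10 against D1, Pf4 and Ppbp, both platelet-type ligands coded beside Cxcl1 to Cxcl3 on chromosome 5, fell (log2 -6.15 and -7.60, adjusted p = 0.00193 and 0.0249, edgeR), where 14.4% of all genes were called. Early macrophages had more Pf4 (log2 3.41) and Ppbp (5.67) and less Cxcl13 (-3.92) and Cxcl14 (-0.79) than microglia, all 4 tested ligands being called, where 37.5% of all genes were. Late macrophages had less Cxcl14 (-1.57), Cxcl13 (-3.46) and Pf4 (-1.54), where 13.6% of all genes were called.

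Of the receptors, Cxcr4 alone was widely tested. It was called higher than controls in microglia at D2 (log2 3.05), D3 (3.32), D10 (4.74) and D21 (5.43), and higher in macrophages than in microglia both early (4.91) and late (2.51). Neutrophil-like cells exceeded macrophages for all 4 tested receptors, with Cxcr1 (9.09) and Cxcr2 (8.94), the receptors of the ELR ligands, above Cxcr3 (4.37) and Cxcr4 (2.24), where 20.7% of all genes were called higher. Cxcr2 was also among the markers that named the neutrophil-like cells. Of the proteases that release Cxcl16, Adam10 was lower in macrophages than in microglia early (-0.84) and late (-0.75), and Adam17 was lower in dendritic-like cells than in macrophages (-0.65). Neither was called in microglia at D1 or in macrophages at D10.

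Genes of NF-kB and innate sensing, the pathway known to drive the ELR ligands, were called in both directions. In microglia at D1 against controls, 2 of 18 were called higher, among them the prostaglandin synthase Ptgs2 (log2 4.10), and 4 lower, among them Nfkb1 (-1.95) and Il1a (-1.55), where 46.6% of all genes were called. In macrophages at D10 against D1, 3 of 16 were called, all lower: Nfkbia (-1.90), the inhibitor that NF-kB itself induces, the lipopolysaccharide co-receptor Cd14 (-3.75) and the mRNA decay factor Zfp36 (-1.43), with a list median of -1.52 against 0.0105 over all genes, of which 14.4% were called. Between macrophages and microglia early, 6 of 17 were higher and 1 lower, with Il1b at 2.89 and Tnfaip3 at 1.89 (list median 0.758 against 0.0365 over all genes, of which 37.5% were called). In neutrophil-like cells against macrophages, 9 of 17 were higher and 1 lower, with Il1b at 1.96 and Tnfaip3 at 1.80 (list median 0.881 against -0.161 over all genes, of which 48.1% were called).

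Interferon pathway genes, known to accompany Cxcl9 and Cxcl10, did not follow 1 course. In microglia at D1 against controls 8 of 18 were called, all lower, where 46.6% of all genes were called in either direction (list median -1.65 against -0.008 over all genes). They included Irf1 (-2.25), Stat2 (-3.50) and the receptor genes Ifngr1 (-2.20) and Ifnar1 (-1.99). At D2 and D3 against controls 4 and 3 of the 18 were lower, and 0 and 1 higher (29.7% and 37.6% of all genes called). From D1 to D3, 5 rose, including Stat2 (2.93), Oasl2 (3.40) and Ifit2 (3.07), and from D1 to D10, 9 rose and none fell by the test (18.8% and 33.7% of all genes called). In macrophages at D10 against D1, 4 of 18 were lower, with Rsad2 at -3.83, Ifit1 at -2.81 and Isg15 at -2.38, and 3 higher, with Irf8 at 0.83 (14.4% of all genes called). Early macrophages exceeded microglia for 10 of 18 and were lower for none, with Rsad2 at 2.93, Oasl2 at 1.96, Irf7 at 1.84 and Isg15 at 1.75 (37.5% of all genes called, list median 1.07 against 0.0365). Between late macrophages and microglia, where Cxcl9 was called, none of the 18 was called (13.6% of all genes were). At D21 against controls, where Cxcl9 of microglia was called, none of the 18 was called either (6.98% of all genes were).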

How the data were processed

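For every library the authors deposited the unnormalised UMI count of each gene in each cell, together with a list of the cells' UMI count totals, cell type numbers and cluster numbers. Cell Ranger 3.1.0 and GRCm38/mm10 are named in the submitters' processing notes. The annotation, the filters on cells and the treatment of doublets are not given in the sources used here, and no doublet caller was run. The sum of UMIs equalled the deposited total in all 30958 cells.

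Counts were summed per library and cell type (at least 20 cells) and tested with edgeR 4.0.16 (quasi-likelihood, TMM, filterByExpr, R 4.3.3), with time and sex as terms within a type or the library as a block between types. Fits were checked on simulated counts. DESeq2 1.42.0, other filters, equal depth, single clusters, pools, sorts and left-out libraries were alternatives. Leaving libraries out of the pooled count ratios was added after seeing the data. Levels, shares and motifs were computed with Python 3.11.15, numpy 2.4.6 and pandas 2.3.3. Thinning drew 1000 UMIs per cell without replacement. Intervals of ratios are exact, at the 95% level, and cover counting error only. Library totals of 486649 to 33204422 UMIs set the precision.

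The members and lists were chosen with earlier results of these data known. Named genes were the members, the 3 genes most like each by correlation (mean of at least 20 CPM), and at most 4 genes of a listed pathway with the smallest adjusted p. The promoter table held 5 of the 6 members.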

Additional observations from a re-analysis of the deposited data

Results flagged for a closer look

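In 18 combinations of a member, a type and a time point with 4 to 10 libraries, the gap of the highest or lowest library to its neighbour was compared with the range of the group. Chance alone marks about 1 in 20 groups of measured values, a rate that does not apply where all libraries but 1 are at 0, since any UMI is then marked. The comparison marked 6: in microglia at D3, Cxcl2 (0.481 CPM) and Cxcl9 (8.18 CPM) of D3_resident 2, both 0 in the other 4 libraries, and Cxcl10 of D3_resident 1 (336 CPM, next 34.0). In macrophages they were Cxcl1 of D1_mixed 3 (46.2 CPM), Cxcl1 of D10_infiltrating 1 (0.496 CPM, the others at 0) and Cxcl10 of D10_infiltrating 1 (60.0 CPM).

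The library D3_conflict 1, whose title and colour label disagree, entered no test but an alternative fit of macrophages over time. It held all 6 members above the higher of both control libraries over all cells. The cell types differ: all 1887 control cells are microglia, while D3_conflict 1 holds 8 microglia among its 3800 cells. Cxcl10 was at 202 CPM there against 24.3 in that control, Cxcl2 at 104 against 0.179 and Cxcl3 at 22.2 against 0.539. Cxcl16 was at 138 CPM against 101, Cxcl9 at 0.986 against 0.536 and Cxcl1 at 0.0616 (2 UMIs) against 0. In D3_infiltrating 1, over all cells, the same 6 levels were 313, 55.9, 25.7, 237, 5.69 and 0.181 CPM. Whether its cells are resident or infiltrating is not used here.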

How the results depend on the processing

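Of the member changes recomputed under the alternatives, 1608 kept their side of the threshold, 62 of them with another sign and no call (such as Cxcl10 in microglia at D2 against Ctrl, from 3.14 to -0.66 without D2_resident 1), 31 gained a call, 42 lost one and 1 reversed: the late minus early difference of Cxcl2 between macrophages and microglia, -5.13 without D21_mixed 1 (up to 3.96 without D10_mixed 2). Members called moved as follows, where small steps, such as from 2 to 3 or from 3 to 4, are not listed. With DESeq2, which gave Cxcl2 no adjusted p in any microglia time comparison, they were 1 (microglia D1 against Ctrl, from 2), 0 (microglia D3 against D1, from 2), 1 (macrophages D21 against D1, from 0), 1 (early types, from 2) and 1 (late types, from 3). Without an expression filter, where Cxcl1 was tested too, they were 2 in microglia at D2, D3 and D10 against Ctrl (from 1 each), 4 between early types and 1 for late minus early (from 0). At equal depth they were 0 in microglia at D1 and at D2 against Ctrl, 1 at D21 (from 2), 1 at D3 and at D10 against D1 (from 2 and 3), 1 for early, 1 for late and 1 for late minus early types. Among mixed libraries alone they were 0 in microglia at D1, D2, D3 and D10 against Ctrl and at D3 against D1, 1 at D10 against D1, and 1 and 3 in macrophages at D2 and D3 against D1 (from 0). With pools as a term they were 2 in microglia at D2 and D10 against Ctrl, and with the sort as a term 2 at D3 against Ctrl and 1 at D3 against D1. Without cluster 2 they were 1 in microglia at D1 against Ctrl and 1 at D3 against D1, where sums of at least 50 cells also gave 1.

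Leaving out single libraries gave, against Ctrl in microglia, 1 to 3 at D1, 0 to 2 at D2, 0 to 1 at D3, 1 to 2 at D10 and 2 to 3 at D21. It gave 0 to 2 at D3 and 0 to 4 at D10 against D1. In macrophages it gave 3 at D10 and 0 at D2, D3 and D21, between types 2 early, 1 to 4 late and 0 to 1 for late minus early, and 4 for neutrophil-like and 4 to 5 for dendritic-like cells. With the replicate block, 1 member was called in microglia at D3 against D1 (from 2). The numbers do not pair libraries: correlations of same-numbered libraries ran from -0.173 to 0.147, and 3 of 7 exceeded 0.1. A pool term could not be fitted for microglia at D1 or D21 against Ctrl or at D3 or D10 against D1, nor for macrophages at D10. The causes of these moves were not tested.

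Calls over all genes ranged as widely: 1206 to 5398 for microglia at D1 against Ctrl (5034 as reported), 718 to 3781 at D2 (3210), 255 to 4501 at D3 (4064), 71 to 2404 at D10 (1111), 209 to 1109 at D21 (754), 357 to 2534 at D3 against D1 (2030) and 669 to 4070 at D10 against D1 (3638). For macrophages they were 376 to 1783 at D10 (1231), 0 to 45 at D2 (0), 0 to 860 at D3 (0) and 14 to 781 at D21 (305), and between types 931 to 3891 early (3602), 301 to 1889 late (1306), 309 to 1410 for their difference (1025), 1171 to 4826 for neutrophil-like (4653) and 1790 to 4805 for dendritic-like cells (4192). RLE scaling moved the median of all genes at D1 against Ctrl from -0.008 to -0.178.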
